A study of Mus musculus with 8 samples.

Results

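A set of 9 genes of the CatSper channel and of sperm potassium conductance was followed across every library of the study. They were the genes for the pore subunits Catsper1, Catsper2, Catsper3 and Catsper4, the genes for the auxiliary subunits Catsperb, Catsperd, Catsperg1 and Catsperg2, and Kcnu1. They were taken by gene name, 9 genes of the 54532 in the expression table, and each name matched 1 row. All 9 had an FPKM (fragments per kilobase of gene, scaled by the authors for the depth of each library) above 1 in each of the 8 libraries, so no filter removed any of them.

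CatSper is a calcium channel of the sperm tail. Its pore is built from 4 different subunits, CatSper1 to CatSper4, which are surrounded by auxiliary membrane proteins with large outer domains, among them the β, γ and δ subunits encoded by Catsperb, Catsperg1 or Catsperg2, and Catsperd. Calcium entry through it drives the vigorous tail beat that sperm need for fertilization, and the channel is assembled in spermatids while the tail forms. Kcnu1 encodes SLO3, the pore of the sperm-specific potassium channel that sets the membrane potential of sperm and works with the auxiliary protein LRRC52.

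RNA was sequenced from spermatocytes of C57BL/6J mice in 8 groups with 1 library each, made up of pachytene (P) or leptotene/zygotene (L/Z) cells, MFN2 WT or MFN2 cKO mice, and postnatal day (PD) 24 or PD 52. The cKO mice were Mfn2 loxp/loxp carrying Stra8-Cre, which acts in male germ cells from early spermatogonia onward, so that exon 6 of Mfn2, a mitochondrial fusion gene, is lost in those cells and their descendants. The WT mice are labelled Mfn2 loxp/loxp without Cre, and per the study's methods they were littermates with either 1 or 2 floxed alleles. Cells were separated by size in a BSA gradient, and how many animals entered a library is not given in the sources used here.

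The libraries held 14340665 to 20379950 reads on genes. Mfn2, the deleted gene, had FPKM values of 77.1 (P) and 82.2 (L/Z) in WT mice of PD 24, and 39.6 and 34.3 in the cKO mice. At PD 52 the P and L/Z libraries had 62.2 and 97.5 in WT, and 50.1 and 47.9 in cKO mice, so it was lower in MFN2 cKO in 4 of 4 pairs. These reads cover the whole gene and not the deleted exon alone.

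The stage labels were checked against marker genes. Piwil1, a piRNA-binding protein of pachytene cells, had FPKM values of 278 and 218 in the P libraries and 22.2 and 19.9 in the L/Z libraries at PD 24, WT before cKO. The pachytene list as a whole was less clear, since 9 of its 13 genes were higher and 4 lower in P than in L/Z in both pairs of PD 24, 8 higher and 5 lower in MFN2 WT at PD 52, and 7 higher and 6 lower in MFN2 cKO at PD 52, where its summed FPKM in P was 89.6% of that in L/Z. Of 10 leptotene and zygotene marker genes, however, 5 were higher and 5 lower in P than in L/Z of MFN2 WT mice at PD 24, so that list did not mark the L/Z libraries. All 16 genes on a list of round and elongating spermatid markers were higher in L/Z than in P in 4 of 4 pairs, and none of the 16 was at 0 in any library. Their summed FPKM was 1549 (P MFN2 WT), 188 (P MFN2 cKO), 3140 (L/Z MFN2 WT) and 697 (L/Z MFN2 cKO) at PD 24, and 5702, 2785, 12746 and 22328 in the same order at PD 52. Summed FPKM over the 8 libraries ran from 3611 to 6151 for pachytene, 49.3 to 175 for spermatogonia, 21.9 to 685 for Sertoli cell, 20.7 to 666 for Leydig cell, 9.36 to 103 for macrophage and 37.8 to 208 for peritubular myoid cell markers. Spermatid RNA was thus present in every library and moved with stage, age and genotype. Its part in the results that follow was not tested, and in bulk RNA fewer cells of a type and less RNA per cell cannot be told apart.

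The 9 genes did not move as one group. Catsper1, Catsper3, Catsper4 and Kcnu1 had a common profile, highest in the L/Z libraries of PD 52 and lowest in P MFN2 cKO at PD 24. Catsperd, Catsperg1 and Catsperg2 had the opposite order of stages at PD 24, and Catsper2 stayed within a 1.8-fold range over the 8 libraries. The plot of FPKM by library shows these profiles side by side.

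**Figure D1:**
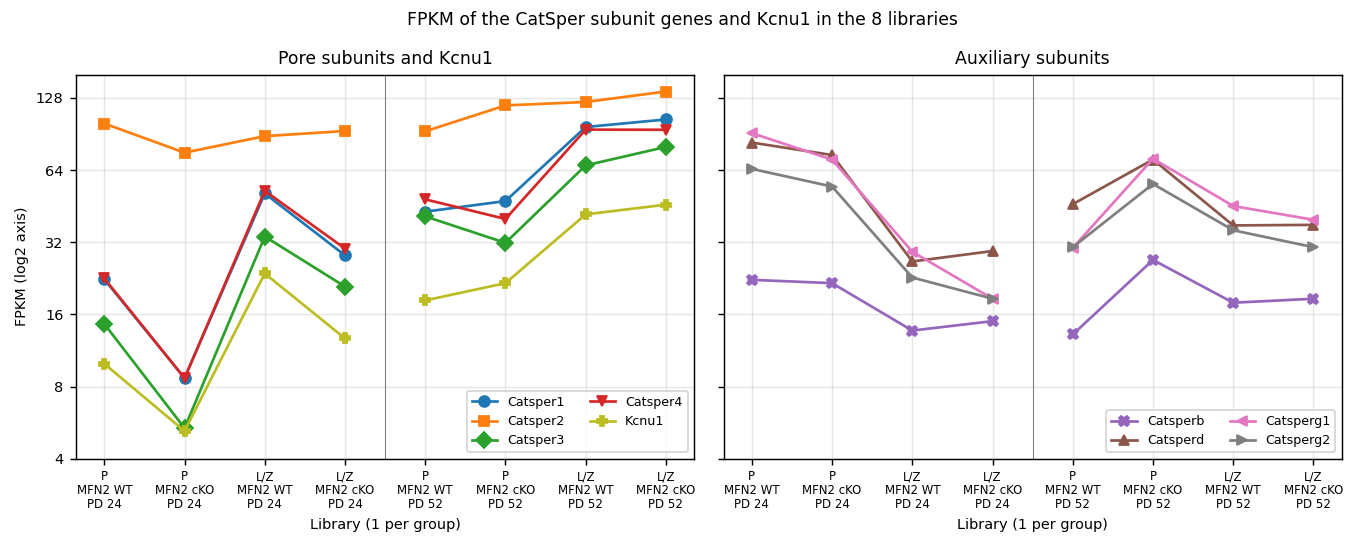
FPKM on a log2 axis for each gene in each of the 8 libraries (1 library per group, so no error bars), pore subunits and Kcnu1 on the left and auxiliary subunits on the right, with PD 24 left and PD 52 right of the grey line in each panel. Catsper1, Catsper3, Catsper4 and Kcnu1 run nearly parallel and lie higher in L/Z than in P, Catsper2 stays between 75.6 and 136, and Catsperd, Catsperg1 and Catsperg2 lie higher in P than in L/Z at PD 24.

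Catsper1 lies at chr19:5335741-5344153 on the plus strand (GRCm38), and its longest annotated transcript has 12 exons. Its FPKM at PD 24 was 22.4 in P MFN2 WT, 8.69 in P MFN2 cKO, 51.1 in L/Z MFN2 WT and 28.2 in L/Z MFN2 cKO. At PD 52 the same order gave 42.9, 47.5, 96.7 and 104. Every PD 52 value exceeded the PD 24 value of the same stage and genotype, and the lowest value came from 333 reads.

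Catsper3, on chr13:55784568-55808998 of the plus strand, and Catsper4, on chr4:134211970-134227383 of the minus strand, encode further pore subunits. Catsper3 had FPKM values of 14.6 (P MFN2 WT), 5.37 (P MFN2 cKO), 33.8 (L/Z MFN2 WT) and 20.9 (L/Z MFN2 cKO) at PD 24. In the PD 52 libraries it had 41.0, 31.8, 66.9 and 79.9. Catsper4 had 22.6, 8.67, 52.4 and 30.1 at PD 24, and 48.3, 40.0, 94.3 and 94.2 at PD 52. Both were higher in L/Z than in P in 4 of 4 pairs and higher at PD 52 than at PD 24 in 4 of 4 pairs, like Catsper1.

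Catsper2, on chr2:121392631-121413792 of the minus strand, was the pore subunit gene of highest FPKM in each library. Its FPKM was 100, 75.6, 88.6 and 93.1 at PD 24 and 92.8, 119, 123 and 136 at PD 52, in the same order of groups. The highest of these was 1.8 times the lowest, against 12 times for Catsper1, 14.9 times for Catsper3 and 10.9 times for Catsper4. The span of Catsper2 shares 18 bases with Pdia3 of the opposite strand, which had an FPKM of up to 198. It also shares 247 bases with the pseudogene Gm14001 of the same strand (FPKM up to 23.9). A further 233 bases are shared with the pseudogene Gm14000 of the opposite strand (FPKM up to 17.7). Whether the reads were counted by strand is not given in the sources used here.

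The make-up of the pore transcripts therefore differed between libraries. Catsper2 was 76.9% of the summed FPKM of the 4 pore genes in P MFN2 cKO at PD 24 and 62.6% in P MFN2 WT of that age, but 32.3% and 32.9% in the L/Z libraries of PD 52, WT before cKO. Catsper1 moved the other way, from 8.84% in P MFN2 cKO at PD 24 to 25.4% in L/Z MFN2 WT at PD 52. FPKM is a level per kilobase of gene, with a gene length of 3695 bases for Catsper2 and 2061 for Catsper1. Their longest annotated transcripts have 2293 and 2188 bases, so the shares of the genes depend on the lengths used.

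Kcnu1, on chr8:25849623-25937939 of the plus strand, had the lowest FPKM of the 9 genes in 4 of the 8 libraries. It had 9.96 in P MFN2 WT, 5.22 in P MFN2 cKO, 23.7 in L/Z MFN2 WT and 12.7 in L/Z MFN2 cKO at PD 24. At PD 52 it had 18.3, 21.6, 41.8 and 45.9. This potassium channel gene thus ranked the 8 libraries in the same order as the calcium channel gene Catsper1, and in nearly the same order as Catsper3 and Catsper4.

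Catsperd, on chr17:56628143-56664456 of the plus strand, had FPKM values of 83.3 (P MFN2 WT), 73.9 (P MFN2 cKO), 26.6 (L/Z MFN2 WT) and 29.4 (L/Z MFN2 cKO) at PD 24. At PD 52 it had 46.1, 70.8, 37.6 and 37.8. P was above L/Z in 4 of 4 pairs, most widely at PD 24.

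Catsperg1 and Catsperg2 are copies of each other on chromosome 7, at chr7:29181321-29214035 and chr7:29697219-29727032, both on the minus strand. Catsperg1 had FPKM values of 91.2, 70.7, 29.2 and 18.6 at PD 24 and 30.3, 71.3, 45.3 and 39.7 at PD 52. Catsperg2 had 64.7, 54.6, 22.8 and 18.6 at PD 24 and 30.5, 56, 35.9 and 30.5 at PD 52. Both had their highest value in P MFN2 WT at PD 24, and both were lower in P MFN2 WT at PD 52 than in any other P library.

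The longest coding sequences of the copies align over 3432 bases, of which 3310 (96.4%) are identical and 122 differ, and the longest identical run is 341 bases. Of the distinct stretches of 50 bases in their transcripts, 43.0% of those of Catsperg1 and 44.1% of those of Catsperg2 occur in both genes. The opening 90 coding bases are shown because they make clear how little separates the copies, with the differing base in capitals.
Catsperg1: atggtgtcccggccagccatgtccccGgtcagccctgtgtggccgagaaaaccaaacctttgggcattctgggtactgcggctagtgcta
Catsperg2: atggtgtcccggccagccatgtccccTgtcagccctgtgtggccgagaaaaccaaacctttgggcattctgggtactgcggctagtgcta
Reads from such stretches could have been assigned to either copy, so the separate levels of Catsperg1 and Catsperg2 are uncertain and part of their likeness may come from shared reads. The other 7 genes shared at most 0.572% of their stretches with any other gene, apart from Catsperb, which shared 9.27% with the pseudogene Gm18795.

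Catsperb, on chr12:101404653-101626009 of the plus strand, had FPKM values of 22.3, 21.6, 13.7 and 15.0 at PD 24 and 13.2, 27.0, 17.9 and 18.6 at PD 52. It was the flattest of the auxiliary subunit genes, its highest value being 2.05 times its lowest. The 2 extremes were both P libraries of PD 52.

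The first question of the design was how pachytene cells differed from leptotene/zygotene cells. At PD 24, Catsperd, Catsperg1 and Catsperg2 were higher in P, and Catsper1, Catsper3, Catsper4 and Kcnu1 were lower in P than in L/Z. In MFN2 WT mice Catsperd was 3.13-fold higher in P (95% counting interval 2.97 to 3.3), whereas Catsper1 stood at 43.8% of its L/Z level (40.4% to 47.3%). In MFN2 cKO mice the same values were 2.51-fold (2.38 to 2.65) and 30.8% (27.2% to 34.9%). These intervals cover counting error only and not the spread between animals.

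A limma fit over all 8 libraries, in which the spread comes from how far the stage and genotype effects depart from adding up within an age (2 residual degrees of freedom), called 3 of the 9 genes higher and 4 lower in P at PD 24. For comparison, 5.42% of the 21175 genes tested were called higher and 7.41% lower. On the log2(FPKM + 1) scale the change was 1.74 for Catsperg1 (SE 0.351, adjusted p = 0.0338), 1.48 for Catsperg2 (SE 0.296, adjusted p = 0.0331) and 1.46 for Catsperd (SE 0.244, adjusted p = 0.0275). It was -1.47 for Catsper3 (SE 0.265, adjusted p = 0.0286), -1.43 for Catsper4 (SE 0.232, adjusted p = 0.0268), -1.37 for Catsper1 (SE 0.219, adjusted p = 0.0267) and -1.16 for Kcnu1 (SE 0.193, adjusted p = 0.0274). Catsperb, at 0.58 (95% interval -0.09 to 1.24), and Catsper2, at -0.06 (-0.64 to 0.51), did not pass.

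At PD 52 the fit called Catsper1 (-1.14, SE 0.219, adjusted p = 0.0284), Catsper4 (-1.08, SE 0.232, adjusted p = 0.0331) and Kcnu1 (-1.10, SE 0.193, adjusted p = 0.0247) lower in P, while Catsper3 missed the threshold (-1.0, adjusted p = 0.0534). In all, 6.27% of genes were called higher and 9.74% lower in P at that age. None of Catsperb, Catsperd, Catsperg1 and Catsperg2 passed at PD 52, where Catsperd was at 0.59 (95% interval -0.01 to 1.18) and Catsperg1 at 0.13 (-0.72 to 0.99). The change of the stage effect with age was itself tested and was called for none of the 9 genes, the largest being -1.61 for Catsperg1 (adjusted p = 0.473). It was called for 0% of all genes, 0 of 21175, of which 1983 had an unadjusted p under 0.05, and limma on reads called 23.

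These stage calls rest on few degrees of freedom. When any 1 of the 8 libraries was left out, no gene was called at either age. Catsper1 then ranged from -1.59 to -1.16 and Catsperd from 1.30 to 1.61 at PD 24. Without 1 library of that age only a single pair of P and L/Z is left there. The ends of these ranges are thus the changes of the single pairs again and do not test stability. Without the filter on FPKM no gene was called either. With libraries scaled to their reads on genes, 996 genes were higher and 2267 lower in P at PD 24 (1148 and 1570 as deposited) and 1832 higher and 1454 lower at PD 52 (1327 and 2062), but the 9 genes gave the same calls.

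**Figure D2:**
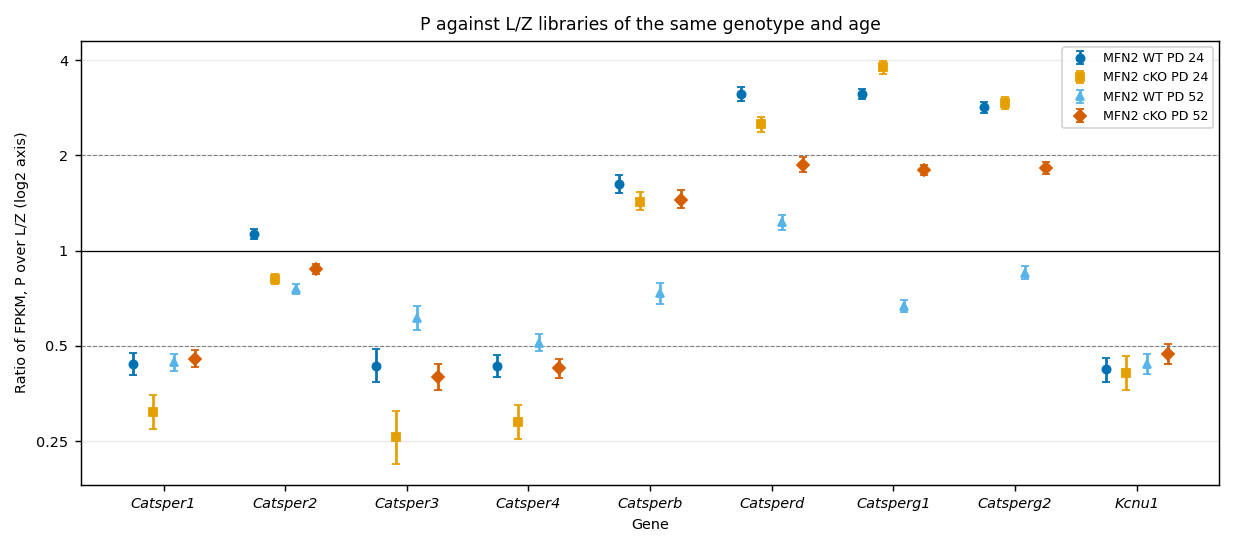
Ratio of FPKM in P over L/Z on a log2 axis for each gene, 1 point per pair of libraries of the same genotype and age, with 95% counting intervals as bars and dashed lines at 2-fold. Catsper1, Catsper3, Catsper4 and Kcnu1 lie under 1 in all 4 pairs, whereas Catsperd, Catsperg1 and Catsperg2 lie above 2 in both pairs of PD 24 and lower at PD 52.

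Catsper1, Catsper3, Catsper4 and Kcnu1 moved with stage as the spermatid markers did. Acrv1, an acrosomal protein gene on that marker list, was at 42.1% of its L/Z level in P MFN2 WT at PD 24 and Spaca1, another acrosomal gene, at 42.4%, beside 43.8% for Catsper1, 43.3% for Catsper3, 43.2% for Catsper4 and 42.1% for Kcnu1. The summed FPKM of all 16 markers was at 49.3% in that pair. Catsperd, Catsperg1 and Catsperg2 were higher in P, as Piwil1 was. Piwil1 was picked from the pachytene list, where 9 of 13 genes were higher in P of that pair and 4 lower. The median log2 change of that list was 0.65, and only 1 of its genes rose past 2-fold, with 1 falling as far. These genes thus cannot be said to follow the pachytene list as a whole. Sertoli cell markers were also higher in P than in L/Z of that pair, 10 of 10, with a summed FPKM of 555 against 225.

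The sequence before each start site is shown for members of both profiles, because members that move together may be compared there. RefSeq promoters on GRCm38.p6, 250 bases before to 50 after the start site, were matched for 6 of the 9 genes, and Catsper1, Catsperg2 and Kcnu1 had no entry. Capitals mark the letters AACNG (the core bound by MYB proteins, among them the pachytene regulator MYBL1), TGACG (the core of the cAMP response element) and GTTGCC (part of the X-box bound by RFX factors), searched on both strands. Catsper3 (chr13:55784329-55784628, plus strand) and Catsper4 (chr4:134227334-134227633, minus strand) were of the profile higher in L/Z, and Catsperd (chr17:56627893-56628192, plus strand) and Catsperg1 (chr7:29213984-29214283, minus strand) of the profile higher in P.
Catsper3: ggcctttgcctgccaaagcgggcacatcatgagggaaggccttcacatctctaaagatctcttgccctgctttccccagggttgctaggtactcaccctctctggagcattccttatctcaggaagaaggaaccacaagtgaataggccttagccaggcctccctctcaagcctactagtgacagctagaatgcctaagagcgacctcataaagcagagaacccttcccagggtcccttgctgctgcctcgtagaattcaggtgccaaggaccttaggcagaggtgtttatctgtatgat
Catsper4: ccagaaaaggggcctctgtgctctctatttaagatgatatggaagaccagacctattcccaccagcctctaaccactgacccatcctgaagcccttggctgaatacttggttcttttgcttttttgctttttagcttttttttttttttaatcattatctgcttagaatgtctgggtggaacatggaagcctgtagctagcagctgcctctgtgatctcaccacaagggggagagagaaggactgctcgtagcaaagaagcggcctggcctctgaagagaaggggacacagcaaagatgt
Catsperd: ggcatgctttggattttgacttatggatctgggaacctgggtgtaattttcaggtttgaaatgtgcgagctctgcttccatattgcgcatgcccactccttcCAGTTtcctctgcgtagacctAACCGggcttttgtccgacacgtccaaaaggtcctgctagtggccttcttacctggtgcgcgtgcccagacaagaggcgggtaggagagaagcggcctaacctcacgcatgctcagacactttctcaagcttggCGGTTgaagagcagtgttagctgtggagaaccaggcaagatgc
Catsperg1: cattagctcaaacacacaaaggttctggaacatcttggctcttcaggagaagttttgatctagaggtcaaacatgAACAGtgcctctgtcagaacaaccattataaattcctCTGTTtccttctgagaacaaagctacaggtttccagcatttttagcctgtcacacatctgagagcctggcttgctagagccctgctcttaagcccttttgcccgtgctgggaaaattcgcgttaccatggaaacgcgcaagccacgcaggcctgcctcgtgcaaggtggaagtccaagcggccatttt
None of these motifs occurred in the windows of Catsper3 and Catsper4. AACNG occurred 3 times in that of Catsperd and 2 times in that of Catsperg1, and also 5 times in that of Catsperb and 2 times in that of Catsper2. It is a common string, present in 80.3% of all 32851 promoter windows, against 20.8% for TGACG and 12.5% for GTTGCC. The cAMP element core occurred once, in Catsper2, whose window was also the richest in G and C (74.7%, against 38.0% in Catsperb).

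Ages were compared next. Catsper1, Catsper3, Catsper4 and Kcnu1 rose from PD 24 to PD 52, and none of the other 5 genes passed the test. The fitted rise was 1.66 for Catsper3 (SE 0.187, adjusted p = 0.00314), 1.5 for Catsper1 (SE 0.155, adjusted p = 0.00262), 1.40 for Catsper4 (SE 0.164, adjusted p = 0.00336) and 1.31 for Kcnu1 (SE 0.136, adjusted p = 0.00264), on the log2(FPKM + 1) scale. Of all genes tested, 17% were called higher and 11.7% lower at PD 52. With libraries scaled to their reads on genes the split turned, to 2974 genes higher and 4382 lower (3602 and 2471 as deposited), and the median of all genes fell by 0.136, yet Catsper1 remained at 1.30 (adjusted p = 0.00343).

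The ratio of PD 52 to PD 24 was higher in the MFN2 cKO than in the MFN2 WT libraries for all 4 of these genes in both stages, although the limma test of that difference, given with the genotypes, passed for none. Catsper3 was 5.92-fold higher at PD 52 in P MFN2 cKO (95% counting interval 4.91 to 7.18) and 2.8-fold in P MFN2 WT (2.49 to 3.16). In L/Z cells it was 3.82-fold higher in MFN2 cKO (3.45 to 4.23) and 1.98-fold in MFN2 WT (1.81 to 2.15). The spermatid markers were higher at PD 52 in the same pairs, 16 of 16 in each. Other markers moved with age as well. Sertoli cell markers were lower at PD 52 in 10 of 10 genes in P MFN2 cKO and in L/Z MFN2 WT, with summed FPKM at 40.9% and 9.74% of PD 24, Leydig cell markers were higher in 7 of 7 in P MFN2 WT and 8 of 8 in P MFN2 cKO, and leptotene and zygotene markers were lower in 10 of 10 in both MFN2 cKO pairs. The part of these cells in the age changes was not tested.

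Among the genes that did not pass, Catsper2 was at 0.39 (95% interval -0.01 to 0.79), Catsperb at 0.06 (-0.41 to 0.53), Catsperg1 at 0.03 (-0.57 to 0.64), Catsperg2 at 0.07 (-0.44 to 0.58) and Catsperd at -0.02 (-0.44 to 0.41). For the last 4 of these the sign turned with the scaling of the libraries. The near-zero means hid changes in opposite directions, since Catsperg1 stood at 33.3% of its PD 24 level in P MFN2 WT (32% to 34.6%) and at 155% in L/Z MFN2 WT (149% to 162%). When any 1 library was left out, no age call remained, and the lowest adjusted p of the 9 genes was 0.0508.

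The comparison the study was built for was MFN2 cKO against MFN2 WT. At PD 24 all 9 genes had a lower FPKM in P MFN2 cKO than in P MFN2 WT, although Catsperb turned to a log2 change of 0.12 with libraries scaled to their reads on genes, and Catsper1, Catsper3 and Catsper4 were lower by at least 2-fold on the log2(FPKM + 1) scale. Of all 16749 genes, 62.1% were lower in this pair, with a median change of -0.095, as were 9 of 9 other CatSper complex genes, 12 of 12 other ion transport genes, 11 of 13 pachytene markers and 10 of 10 leptotene and zygotene markers. Catsper3 stood at 36.7% of WT (95% counting interval 30.0% to 44.7%), Catsper4 at 38.3% (33.8% to 43.4%) and Catsper1 at 38.8% (34.2% to 44.1%). Kcnu1 was at 52.4% (46.1% to 59.5%), Catsper2 at 75.6% (73.0% to 78.3%) and Catsperb at 96.9% (91.5% to 103%). In that pair 6.29% of 16749 genes were at least 2-fold lower and 1.79% at least 2-fold higher.

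In L/Z cells at PD 24 none of the 9 genes reached 2-fold, against 7.03% of all genes lower and 3.45% higher. Kcnu1 was at 53.7% of WT (49.4% to 58.4%), Catsper1 at 55.1% (51.1% to 59.5%), Catsper4 at 57.5% (53.4% to 61.8%) and Catsper3 at 61.8% (55.3% to 69.1%). Catsperg1 was at 63.8% (60.6% to 67.2%), while Catsper2, Catsperb and Catsperd were between 105% and 111%. The same genes, Catsper1, Catsper3, Catsper4 and Kcnu1, were thus the lowest of the 9 relative to WT in both stages.

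At PD 52 these genes were nearer to WT. In P cells Catsper1 was at 111% of WT (103% to 119%), Kcnu1 at 118% (109% to 128%), Catsper4 at 82.9% (76.9% to 89.3%) and Catsper3 at 77.5% (69.8% to 85.9%). Catsper3 and Catsper4 thus remained below WT beyond counting error in P cells. In L/Z cells the 4 genes were between 99.9% and 119% of WT. The auxiliary subunit genes stood out in P cells instead, with Catsperg1 at 235% of WT (225% to 245%), Catsperb at 205% (191% to 220%), Catsperg2 at 183% (176% to 191%) and Catsperd at 154% (146% to 161%).

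Only Catsperg1 passed 2-fold on the log2(FPKM + 1) scale in P cells at PD 52, where 5.21% of 17444 genes were higher and 5.78% lower by that much. In L/Z cells at PD 52 none of the 9 did, against 4.83% higher and 3.12% lower of 17860 genes. The P MFN2 WT library of PD 52, the denominator of the P values, was itself the library where Catsperb was lowest, and it held Catsperd, Catsperg1 and Catsperg2 at 46.1, 30.3 and 30.5 FPKM against 83.3, 91.2 and 64.7 in P MFN2 WT at PD 24.

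**Figure D3:**
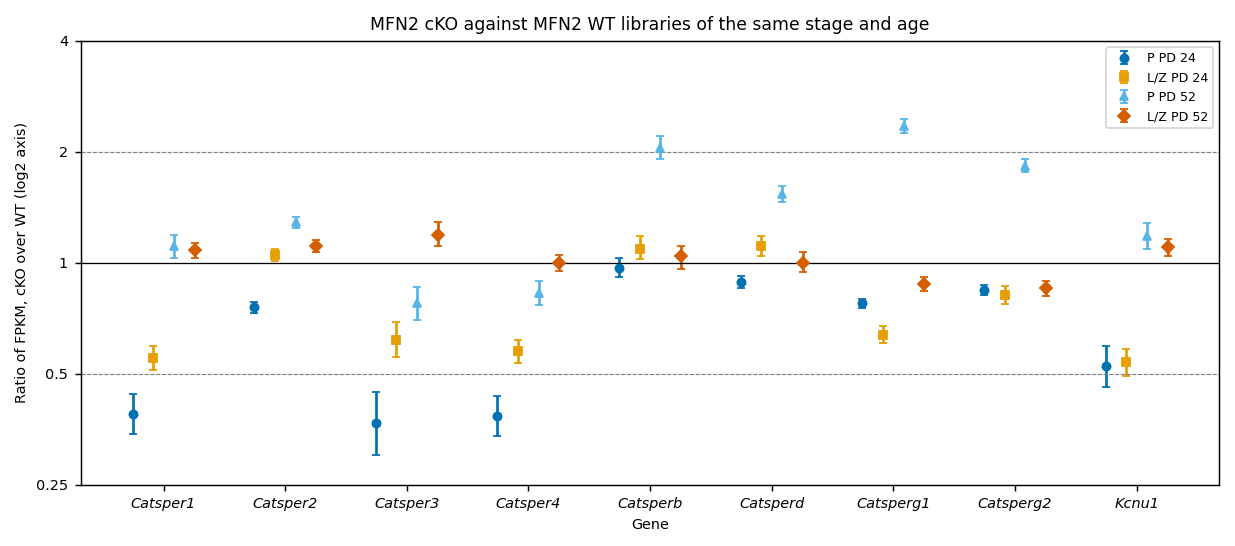
Ratio of FPKM in MFN2 cKO over MFN2 WT on a log2 axis for each gene, 1 point per pair of libraries of the same stage and age, with 95% counting intervals as bars and dashed lines at 2-fold. Both PD 24 points of Catsper1, Catsper3, Catsper4 and Kcnu1 lie between 0.367 and 0.618, their PD 52 points lie between 0.775 and 1.19, and the points for P at PD 52 are the highest for each auxiliary subunit gene.

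None of these genotype differences passed the limma test. At PD 24 the closest were Catsper1, at -1.05 (SE 0.219, adjusted p = 0.0906), Catsper4, at -1.03 (SE 0.232, adjusted p = 0.111), Kcnu1, at -0.83 (SE 0.193, adjusted p = 0.121), and Catsper3, at -0.98 (SE 0.265, adjusted p = 0.176), with 95% intervals that ran from -1.63 to -0.34 at their widest. In that test 1.24% of the 21175 genes were called lower and 0.227% higher in MFN2 cKO, and Mfn2 itself, at -1.09, had an adjusted p of 0.126. With protein-coding genes only, Catsper1 passed (adjusted p = 0.0423), and with limma on the recovered reads Catsper1 (0.0277) and Catsper4 (0.0321) passed, all as adjusted p.

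At PD 52 the fitted genotype changes of the 9 genes ran from -0.13 for Catsper4 (95% interval -0.70 to 0.43) to 0.52 for Catsperb (-0.15 to 1.18). In the single pairs Catsperb changed by 0.98 in P and by 0.05 in L/Z cells. Of all genes, 0.00945% were called higher and 0.0142% lower, which is 5 genes in all. The difference of the genotype effect between ages was positive for all 9 genes, from 0.32 for Catsperd to 1.18 for Catsper1 (SE 0.31, adjusted p = 0.222), and passed for none of them. It was called for 0.0142% of all genes, or 3.

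The spermatid markers moved with the genotype too. At PD 24 all 16 were lower in MFN2 cKO in both stages, 16 by at least 2-fold in P and 11 in L/Z, with a median change of -2.14 and -1.48. Their summed FPKM was at 12.2% of WT in P and 22.2% in L/Z. Prm1, a protamine gene of late spermatids, was at 1.51% of WT in P cells, but Acrv1 was at 37.3% and Spaca1 at 38.4%, beside the 36.7% to 38.8% of Catsper3, Catsper4 and Catsper1. In L/Z cells Acrv1 was at 64.1% and Spaca1 at 77.0%, beside 55.1% for Catsper1, 57.5% for Catsper4 and 61.8% for Catsper3. At PD 52 the list moved in opposite directions in the stages. In P cells 15 of the 16 markers were lower in MFN2 cKO, 5 by at least 2-fold, with a median change of -0.74 and a summed FPKM at 48.8% of WT, and Acrv1, at 103%, was the exception. In L/Z cells 16 of 16 were higher, with a median change of 0.44 and a summed FPKM at 175%. Leydig cell markers were higher in MFN2 cKO in 4 of 4 pairs, 8 of 8 genes in each, with summed FPKM of 20.7 and 141 in P cells at PD 24. At PD 52 the summed FPKM of leptotene and zygotene markers was at 50.4% of WT in P and 53.7% in L/Z. That of Sertoli cell markers was at 52.3% and 292%, and that of macrophage markers at 171% and 624%, in the same order. Whether a different share of spermatids or other cells made the differences in the channel genes was not tested.

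The genes were grouped by likeness of profile, so ratios within a group tend to vary less than ratios between groups by construction, and they are given as a description. The ratio of Catsper1 to Catsper4 in FPKM ran from 0.888 to 1.19 over the 8 libraries, that of Catsper3 to Catsper4 from 0.619 to 0.85 and that of Kcnu1 to Catsper1 from 0.427 to 0.601. Catsperd to Catsperg2 ran from 1.05 to 1.58. The loosest pairs of a group were Kcnu1 to Catsper3, from 0.446 to 0.972 (2.18-fold), and Catsperd to Catsperg1, from 0.83 to 1.58 (1.9-fold). Between the profiles some ratios were far wider, since Catsper2 to Catsper1 ran from 1.27 to 8.7 and Catsperd to Catsper1 from 0.363 to 8.51, a 23.5-fold range. Others were not, and Catsperb to Catsperd ran from 0.267 to 0.517 (1.93-fold).

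**Figure D4:**
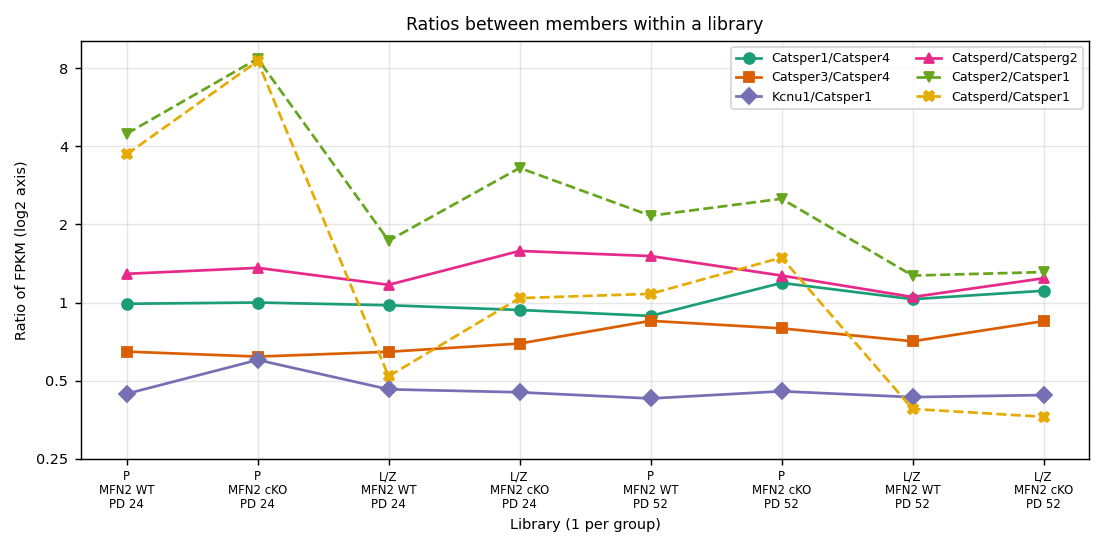
Ratio of FPKM between pairs of genes within each of the 8 libraries, on a log2 axis, with solid lines for 4 pairs of the same profile and dashed lines for pairs of different profiles. The solid lines stay within 1.34-fold to 1.51-fold of themselves, and the dashed lines are highest in P MFN2 cKO at PD 24, at 8.7 for Catsper2/Catsper1 and 8.51 for Catsperd/Catsper1.

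Other genes of the CatSper complex also differed among themselves. Of 9 such genes above an FPKM of 1, the fit called 2 higher and 3 lower in P at PD 24, and 3 higher at PD 52 than at PD 24 and none lower, against the 5.42%, 7.41% and 17% of all genes given above. Catspere1 and Catspere2, which encode ε auxiliary subunits, were higher in P by 2.52 (SE 0.38, adjusted p = 0.0244) and 2.45 (SE 0.288, adjusted p = 0.0189) at PD 24. They were also called at PD 52, by 1.85 (SE 0.38, adjusted p = 0.031) and 1.5 (SE 0.288, adjusted p = 0.0283). Catspere1 had FPKM values of 68.4 and 53.4 in P and 8.36 and 11.3 in L/Z at PD 24, WT before cKO. Catspere2 had 28.8 and 26.1 in P and 3.86 and 4.56 in L/Z. Catspere1 had the wider ratio in WT and Catspere2 in cKO mice.

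Efcab9, the calcium-sensing subunit, Tmem249 and Tmem262 were lower in P at PD 24, with changes of -1.66 (adjusted p = 0.0386), -1.21 (adjusted p = 0.0286) and -1.33 (adjusted p = 0.0437), and rose with age by 1.64, 1.42 and 0.97. Efcab9 had 20.8 and 12.3 in P and 54.5 and 51.3 in L/Z at PD 24. Catsperz, the ζ subunit that binds EFCAB9 protein, had the highest level of the complex, 277 to 612 FPKM, and passed no test of stage or age. Slco6c1, C2cd6 and C2cd6b passed none either, with FPKM ranges of 56.7 to 96.0, 88.9 to 175 and 88.6 to 224. No gene of this list was called for genotype at either age.

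Among 14 other genes of sperm ion transport and calcium signalling, 12 were above an FPKM of 1, and the proton channel gene Hvcn1 and the anion exchanger gene Slc26a3 were not. Of the 12, the fit called 6 higher at PD 52 than at PD 24, against 17% of all genes. It called 3 lower in P at PD 24 and 5 lower in P at PD 52, against 7.41% and 9.74% of all genes. Atp1a4, the sodium pump subunit of sperm, was the only gene of either list called for genotype, at -2.32 (SE 0.224, adjusted p = 0.017) at PD 24. Its FPKM was 30.1 and 4.93 in P MFN2 WT and MFN2 cKO and 65.2 and 13.0 in L/Z, but 57.2 and 56.8 in P and 162 and 220 in L/Z at PD 52.

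Lrrc52, the partner of SLO3 in the potassium channel, was at 16.7% of WT in P cells at PD 24 (95% counting interval 11.1% to 24.5%, 31 reads in MFN2 cKO) and 40.0% in L/Z cells (33.2% to 47.9%). Its fitted change was -1.60 (SE 0.265, adjusted p = 0.0539), which did not pass. Cabyr, a calcium-binding protein of the sperm tail, was at 37.5% and 55% in the same pairs, close to Catsper1. The sodium/proton exchanger genes Slc9c1 and Slc9b1, the anion transporter gene Slc26a8 and the calcineurin genes Ppp3cc and Ppp3r2 stayed within 1.66-fold over the 8 libraries. Adcy10, Abhd2 and Cftr were higher at PD 52 (0.87, 0.67 and 0.64), and Atp2b4, the plasma membrane calcium pump, had 24.1 and 20.5 FPKM in P and 12.3 and 8.44 in L/Z at PD 24 without passing.

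**Figure D5:**
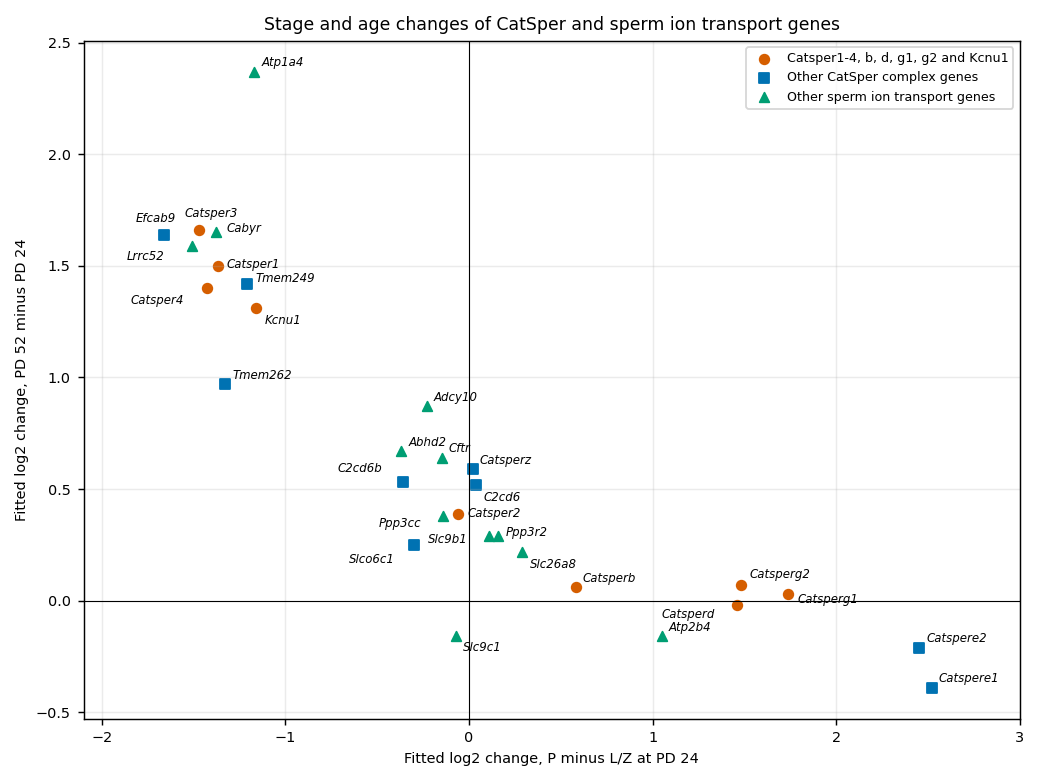
Fitted log2 change of P minus L/Z at PD 24 (x axis) against fitted log2 change of PD 52 minus PD 24 (y axis), both on the log2(FPKM + 1) scale, for the 9 genes (circles), 9 other CatSper complex genes (squares) and 12 other sperm ion transport genes (triangles), all from the same 8 libraries. Catsper1, Catsper3, Catsper4 and Kcnu1 lie at upper left with Efcab9, Tmem249, Lrrc52 and Cabyr, and Catsperd, Catsperg1, Catsperg2, Catspere1 and Catspere2 lie at the right with age changes from -0.39 to 0.07.

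Profiles were also compared across 9186 protein-coding genes, by the root mean square distance between log2(FPKM + 1) profiles centred on their mean over the 8 libraries. Among the 9 genes the closest pairs were Catsper1 and Catsper4 (0.121), Catsper3 and Catsper4 (0.153) and Catsper1 and Kcnu1 (0.168), and the farthest was Catsper3 and Catsperg1 (1.53). The 3 genes nearest to Kcnu1 were Stpg1 (0.0677), Dcst1 (0.0752) and Rfx1 (0.0764), all nearer to it than any of the other 8 genes was. The 10 genes nearest to the mean profile of the 9 were Lrrc36 (0.0867), Gm973, Acr, Agbl3, BC051142, Ankrd36, Tex2, Git1, Mnt and Usp2 (0.136), of which Acr encodes acrosin, a protease of the acrosome. That mean blends opposite profiles and describes no single member.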

How the data were processed

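RNA was sequenced from 8 groups of mouse spermatocytes, 1 library each. Per the labels and the study's methods, libraries were made with the NEBNext Ultra kit and sequenced as paired reads, and the authors normalised them with Novomagic. The submitters' processing notes name CASAVA 1.4, Bowtie 0.12.2, mm8 and mm9, whereas the coordinates in the table are those of GRCm38 for 98.1% of genes, checked against GENCODE M21. The authors deposited FPKM values per gene, not log-transformed, with gene lengths. FPKM multiplied by length gave whole reads for 100% of values in each library (tolerance 0.01), and the scaling was the authors' own.

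Changes were differences of log2(FPKM + 1), which understate the change of low genes. Tests were made with limma 3.58.1 (R 4.3.3) over genes that exceeded an FPKM of 1 in any library, in 1 fit of age, stage and genotype with effects that may differ between ages, two-sided, with Benjamini-Hochberg adjustment and a threshold of 0.05. The fit was also run on simulated reads, drawn without stage or age effects, so that effects added up by construction. That run does not show how the test behaves on these libraries. Groups of 1 library give no replicate spread, so p-values measure departures from additivity. Counting intervals were exact binomial (95%) on reads, which are not independent molecules. The text names the 9 genes, Mfn2, the genes of the CatSper and ion transport lists above 1 FPKM in at least 1 library, and the protein-coding genes above 5 FPKM with the nearest profiles (10 to the mean of the 9, 3 to Kcnu1). Marker genes named as examples were picked after their values were seen. The 9 genes, the lists and the markers were chosen with earlier results of these data known. Alternatives were another pseudocount, no filter, other scalings (those to reads on genes and to protein-coding genes chosen after seeing the data), protein-coding genes only, limma voom on reads, a common genotype effect and leaving out each library.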

Additional observations from a re-analysis of the deposited data

Results flagged for a closer look

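Against MFN2 WT, the cKO libraries held less Catsper1 in both pairs of PD 24 and more in both pairs of PD 52, and Kcnu1 was so too, which is why both are listed here. The fitted genotype change at PD 52 minus that at PD 24 was 1.18 for Catsper1 (SE 0.31, adjusted p = 0.222) and 1.01 for Kcnu1 (SE 0.272, adjusted p = 0.231) in the limma fit, so neither passed after adjustment over all genes. Catsperd is listed because it was lower at PD 52 than at PD 24 in both P pairs and higher in both L/Z pairs. Its age change in P minus that in L/Z was -0.87 (SE 0.345, adjusted p = 0.52), which did not pass either. With libraries scaled to their reads on genes its change with age in L/Z MFN2 cKO turned to -0.03 on the log2(FPKM + 1) scale. In P MFN2 cKO its change with age was -0.06, and it turned to 0.03 with a median-of-ratios scaling over protein-coding genes.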

How the results depend on the processing

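Each count of called genes fell to 0, lowest and highest, when any 1 of the 8 libraries was left out, which leaves 1 residual degree of freedom, and no called change of the 9 genes turned its direction under any alternative run. The genotype calls at PD 24 (310) became 586 with a pseudocount of 0.1, 0 without the FPKM filter, 535 with protein-coding genes only, 909 with limma voom on reads and 29 with 1 genotype effect common to the 4 pairs. Those at PD 52 (5) became 2, 0, 112, 231 and 29 in the same order, and 1 with a median-of-ratios scaling over protein-coding genes. The calls of the difference between ages (3) became 74, 0, 204 and 411, and 0 under both added scalings. Stage calls became 0 without the filter and 4992 with voom at PD 24 (2718), 0 and 5240 at PD 52 (3389), and their difference (0) 22 with protein-coding genes and 23 with voom. Age calls (6073) became 2415 without the filter and 9501 with voom. Genes at least 2-fold apart between genotypes (1354, 1852, 1917 and 1420, for P and L/Z at PD 24 and then at PD 52) became 2330, 3125, 3364 and 2683 with a pseudocount of 0.1, and 664, 846, 791 and 602 with protein-coding genes only.

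Uncalled changes of the 9 genes turned sign as follows, and the cause was not tested. With the common genotype effect, Catsper2 was at 0.04, Catsperd at 0.15, Catsperg1 at 0.01 and Catsperg2 at 0.03 against PD 24, and Catsper1 at -0.46 and Kcnu1 at -0.33 against PD 52. With voom and with scaling to reads on genes, Catsperd was at 0.07 and 0.07 for genotype at PD 24, the stage difference of Catsper2 at 0.05 and 0.05, and age at -0.14 and -0.13 for Catsperb, -0.17 and -0.17 for Catsperg1 and -0.12 and -0.12 for Catsperg2. With the protein-coding scaling, Catsper3 was at 0.04 for genotype at PD 52, Catsperb at -0.06 for stage at PD 52 and Catsperd at 0.04 for age. That scaling moved the median of all genes to -0.105 for stage at PD 24 (843 higher, 1794 lower), and scaling to reads on genes moved it to -0.121 there and to 0.189 for the stage difference.

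Of the 108 changes of the 9 genes between pairs of libraries, 59 moved beyond their counting interval with scaling to reads on genes and 43 with the protein-coding scaling.

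Leaving out 1 library each, the changes that turned sign ranged as follows. For genotype and for stage a left-out library leaves 1 pair at its age, so the ends of these ranges are the changes of single pairs. For genotype at PD 24, Catsper2 ran from -0.40 to 0.07, Catsperb from -0.04 to 0.12 and Catsperd from -0.17 to 0.14. For genotype at PD 52, Catsper3 ran from -0.36 to 0.25, Catsperg1 from -0.19 to 1.21 and Catsperg2 from -0.23 to 0.85. For stage, Catsper2 ran from -0.30 to 0.17 at PD 24, and Catsperb from -0.42 to 0.51, Catsperg1 from -0.56 to 0.83 and Catsperg2 from -0.23 to 0.85 at PD 52. For age, Catsperb ran from -0.17 to 0.29, Catsperd from -0.17 to 0.13, Catsperg1 from -0.32 to 0.38 and Catsperg2 from -0.20 to 0.34. The study's methods describe littermate controls, but the labels give no replicate numbers that tie libraries to animals or litters. No analysis paired by animal or litter was therefore possible, and the common genotype effect was blocked by stage and age only. With 1 library per group, depth limits little for these genes (136 reads or more), while the spread between animals is not measured.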
